A study of Mus musculus with 8 samples.

Results

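The 30 genes described here encode the basement membrane, the thin sheet of matrix on which endothelium rests, and the collagen VI microfibrils beside it. They were chosen by symbol: 6 collagen IV chains, 10 laminin chains, 4 linkers (the nidogens, perlecan and agrin), collagens XV and XVIII, 5 receptor, ligand and modifying genes, and 3 collagen VI chains. All 30 had a row among the 23238 gene symbols of the count tables. The RNA came from lungs of C57BL/6J mice and was bound to ribosomes carrying a haemagglutinin tag, so that it was enriched for the cells in which the tag was switched on. There were 4 libraries from Cdh5-CreERT2;Sox17fl/fl;RPL22tm1.1Psam mice kept for 3 weeks in hypoxia (Sox17-deleted hypoxic libraries) and 4 from Cdh5-CreERT2; RPL22tm1.1Psam mice kept for 3 weeks in room air (control libraries). Both groups were given tamoxifen at 8 weeks of age, as 5 daily doses of 2 mg, and the 3 weeks of exposure started at an age of 10 weeks. Cdh5-CreERT2 is a recombinase driven by the promoter of the endothelial cadherin gene and activated by tamoxifen; it switches on the ribosome tag in both groups and deletes Sox17, a transcription factor of arterial endothelium, where that gene carries loxP sites. The control mice had intact Sox17 and normal oxygen, so genotype and oxygen cannot be told apart in any difference below. The sources used here do not state whether each library stands for its own animal, so p-values measure only how these libraries vary, and that variation may be technical.

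A basement membrane is built from a network of laminin and a network of collagen IV. Laminins are trimers of an alpha, a beta and a gamma chain, and collagen IV is a trimer in which alpha 1 and alpha 2 chains make up the form found under nearly all endothelium. Nidogens, perlecan and agrin join the networks to each other and to the cell. In the lung the endothelial and the epithelial basement membranes are fused over much of the alveolar wall, so that epithelium, endothelium, fibroblasts and mural cells all contribute chains to the same sheet.

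The collagen IV genes lie as head-to-head pairs that share a promoter region. By GENCODE M21 coordinates (GRCm38, or mm10), the 5′ ends of Col4a1 (ENSMUSG00000031502.11, minus strand) and Col4a2 (ENSMUSG00000031503.13, plus strand) are 21 bases apart on chromosome 8, with Col4a1 at 11198423 to 11312826 and Col4a2 at 11312805 to 11449287. The 5′ ends are 72 bases apart for Col4a3 and Col4a4 on chromosome 1, and 1309 bases apart for Col4a5 and Col4a6 on the X chromosome. The RefSeq promoter windows of Col4a1 (GRCm38.p6, chr8:11312777-11313076, minus strand) and Col4a2 (chr8:11312555-11312854, plus strand) run from 250 bases before the start site to 50 bases after it. They are printed because these genes carry nearly all collagen IV counts. Each is 5′ to 3′ on the strand of its gene, and the capitals mark the 78 bases that both windows hold, on opposite strands.
Col4a1: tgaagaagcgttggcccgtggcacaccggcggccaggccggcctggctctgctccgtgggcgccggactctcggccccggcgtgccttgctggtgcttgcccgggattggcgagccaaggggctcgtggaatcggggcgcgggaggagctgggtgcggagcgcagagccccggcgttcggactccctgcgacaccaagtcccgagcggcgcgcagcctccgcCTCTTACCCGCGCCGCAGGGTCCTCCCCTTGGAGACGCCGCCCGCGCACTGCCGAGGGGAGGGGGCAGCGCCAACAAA
Col4a2: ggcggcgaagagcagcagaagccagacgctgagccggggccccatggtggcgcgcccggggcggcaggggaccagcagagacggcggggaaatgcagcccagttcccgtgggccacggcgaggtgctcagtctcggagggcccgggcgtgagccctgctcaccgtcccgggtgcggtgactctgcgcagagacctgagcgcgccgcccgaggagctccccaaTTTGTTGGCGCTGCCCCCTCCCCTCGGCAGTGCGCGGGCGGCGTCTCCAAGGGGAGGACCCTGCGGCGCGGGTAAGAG
The Col4a1 window is 74.0% G or C and the Col4a2 window 73.7%, against a median of 52.7% over all 32851 promoter windows of the same length.

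The windows of Nid1 (chr13:13437352-13437651, plus strand) and Col4a4 (chr1:82586800-82587099, minus strand) are shown because these were the members whose groups of libraries did not overlap. Capitals in them mark matches, on either strand, to the GC box motif GGGCGG, to CCAAT, which is named for its letters, to the core of the hypoxia response element, ACGTG, to the SOX core AACAAT, or to TATAAA, bound by the general transcription machinery.
Nid1: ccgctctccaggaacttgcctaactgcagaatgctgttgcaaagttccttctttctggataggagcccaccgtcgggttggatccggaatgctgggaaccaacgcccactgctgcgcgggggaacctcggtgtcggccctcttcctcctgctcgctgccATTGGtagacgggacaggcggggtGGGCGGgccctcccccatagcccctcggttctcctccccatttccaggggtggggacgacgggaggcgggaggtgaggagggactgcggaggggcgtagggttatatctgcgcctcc
Col4a4: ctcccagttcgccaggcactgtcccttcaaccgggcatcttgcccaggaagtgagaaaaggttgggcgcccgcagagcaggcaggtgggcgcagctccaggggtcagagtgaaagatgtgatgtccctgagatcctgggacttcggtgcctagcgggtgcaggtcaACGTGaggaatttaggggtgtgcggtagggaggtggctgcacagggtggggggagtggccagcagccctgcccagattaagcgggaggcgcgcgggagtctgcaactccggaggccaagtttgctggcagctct
The Nid1 window holds 1 GC box and 1 CCAAT box, and the Col4a4 window holds 1 ACGTG. This last motif was found in 4 of the 30 windows that RefSeq gives for 23 of the members, and in 19.6% of all windows. AACAAT was found in 0 of the 30 and in 10.7% of all, GGGCGG in 20 of the 30 and in 35.7% of all, CCAAT in 9 of the 30 and in 37.4% of all, and TATAAA in 0 of the 30 and in 13.6% of all. The median G or C content was 63.3% over the windows of the members and 52.7% over all windows, and some windows of the members overlap each other. The part of either in these shares was not tested. The matches describe letters within the windows and do not mark sites that a factor binds.

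Total counts ran from 7000313 to 12913304 in Sox17-deleted hypoxic libraries and from 10567561 to 11884614 in control libraries. Sox17 itself had 473, 31, 6 and 41 counts in the Sox17-deleted hypoxic libraries, against 3072, 2591, 2442 and 2442 in the controls. Genes with at least 1 count numbered 8019 to 8708 in the Sox17-deleted hypoxic libraries and 9821 to 10429 in the controls. Levels are given as CPM, the count scaled to the total of its library. The kit sequences the 3′ end of each transcript, so CPM values were not divided by length and are compared between genes. That takes a long and a short transcript to give a like number of reads, which was not tested. Lamb1 had 0, 793, 0 and 1 counts in the Sox17-deleted hypoxic libraries and 0, 208, 0 and 358 in the controls. The number of transcripts behind such counts was not tested. Rankings between genes below, such as the most abundant, are therefore rankings of counts. A level of 3 counts, taken as the smallest set apart from 0, is 0.232 to 0.429 CPM, and such floors cover counting error only. A list of 15 pan-endothelial markers, all with counts, summed to 8560 to 13902 CPM in Sox17-deleted hypoxic libraries and 12636 to 14116 CPM in control libraries. The lowest sum was that of Sox17-deleted hypoxic library 4. Of the 15, 7 had a log2 fold change above 0 and 8 below (median −0.12). Eng (67.6 to 299 CPM in the Sox17-deleted hypoxic libraries, 346 to 545 CPM in the controls) and Erg (3.05 to 202 CPM and 204 to 291 CPM) were lower without overlap, beside 4.96% of all genes tested. In the same order of groups, the most abundant, Ramp2 and Egfl7, averaged 3215 CPM and 4384 CPM, and 2812 CPM and 1883 CPM.

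RNA of other lung cells was present as well. Fibroblast markers (14 of 15 with counts) summed to 1165 to 9376 CPM in the Sox17-deleted hypoxic libraries and to 742 to 1005 CPM in the controls. The actin-severing gelsolin gene Gsn, the most abundant of them and also active in other cells, made up 40.3% to 87.5% of that sum in the Sox17-deleted hypoxic libraries and 29.0% to 47.9% in the controls. Without Gsn, a choice made after seeing the data, the sums were 696, 1392, 587 and 1167 CPM in the Sox17-deleted hypoxic libraries and 499, 695, 524 and 479 CPM in the controls and overlapped. Of the 12 fibroblast markers tested, Gsn among them, 9 had a log2 fold change above 0 and 3 below (median 1.04). In the same order of groups, Col1a2 averaged 320 CPM and 106 CPM, and Inmt 215 CPM and 91.8 CPM. The 3 below 0 were Col1a1 (8.07 CPM and 36.5 CPM), Dcn (43.9 CPM and 63.0 CPM) and Col3a1 (33.6 CPM and 34.2 CPM). Alveolar type 2 markers (13 of 13) summed to 2099 to 4360 CPM and 989 to 1357 CPM, and club and ciliated markers (9 of 9) to 5372 to 8712 CPM and 2595 to 3486 CPM, in the same order of groups. Smooth muscle and pericyte markers (14 of 15) summed to 90.6 to 666 CPM in the Sox17-deleted hypoxic libraries and 88.9 to 168 CPM in the controls, and macrophage and monocyte markers (11 of 12) to 136 to 359 CPM and 65.4 to 148 CPM. Alveolar type 1 markers (11 of 11) summed to 2445 to 3569 CPM in the Sox17-deleted hypoxic libraries and to 3039 to 4015 CPM in the controls. Within that list Ager (266 to 381 CPM in the Sox17-deleted hypoxic libraries, 172 to 179 CPM in the controls) and Aqp5 (38.8 to 90.2 CPM and 0 to 38.4 CPM) were higher without overlap, and of the 9 markers tested 6 had a log2 fold change above 0, while Emp2, Cav1 and Clic5, which endothelium also expresses, were below 0. The most abundant markers of the other lists were Ramp2 (endothelial), Myh11, Sftpc, Scgb1a1, Chil3, Rspo1 (mesothelial) and Hba-a1. Mesothelial markers (4 of 7, with Upk3b, Wt1 and Lrrn4 at 0) stayed at or below 37.9 CPM in all 8 libraries, and erythroid markers (7 of 7) summed to 222 to 2839 CPM and 1325 to 2434 CPM. The part of these cells in the levels below was not tested. A lower bulk level of a gene can come from fewer cells of a type or from less RNA in each, and the counts do not tell these apart.

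Of the 30 members, 27 had at least 1 count in some library and 18 passed the expression filter and were tested. The edgeR quasi-likelihood test with Benjamini-Hochberg adjustment called 0 of the 18 at an adjusted p of 0.05, and 0 of all 8282 genes tested (0.00%). At an unadjusted p under 0.05, edgeR gave 2 members, Nid1 and Pxdn, both lower in the Sox17-deleted hypoxic libraries, beside 5.12% of all genes tested in either direction and 3.05% in the lower direction. DESeq2 called 2 members, Nid1 and Lama3, both lower, beside 4.78% of the 9817 genes to which it gave an adjusted p (3.53% in the lower direction). EdgeR without the expression filter called 0 members, beside 0.121% of 14071 genes (0.0497% in the lower direction). The log2 fold change (Sox17-deleted hypoxia minus control) was above 0 for 10 of the 18 and below 0 for 8, with a median of 0.11, while 49.6% of all genes tested were above 0 with a median of −0.01. Without overlap between the groups were 2 of the 18, Col4a4 (higher) and Nid1 (lower), beside 6.59% of all genes tested, of which 1.63% were higher and 4.96% lower.

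**Figure D1:**
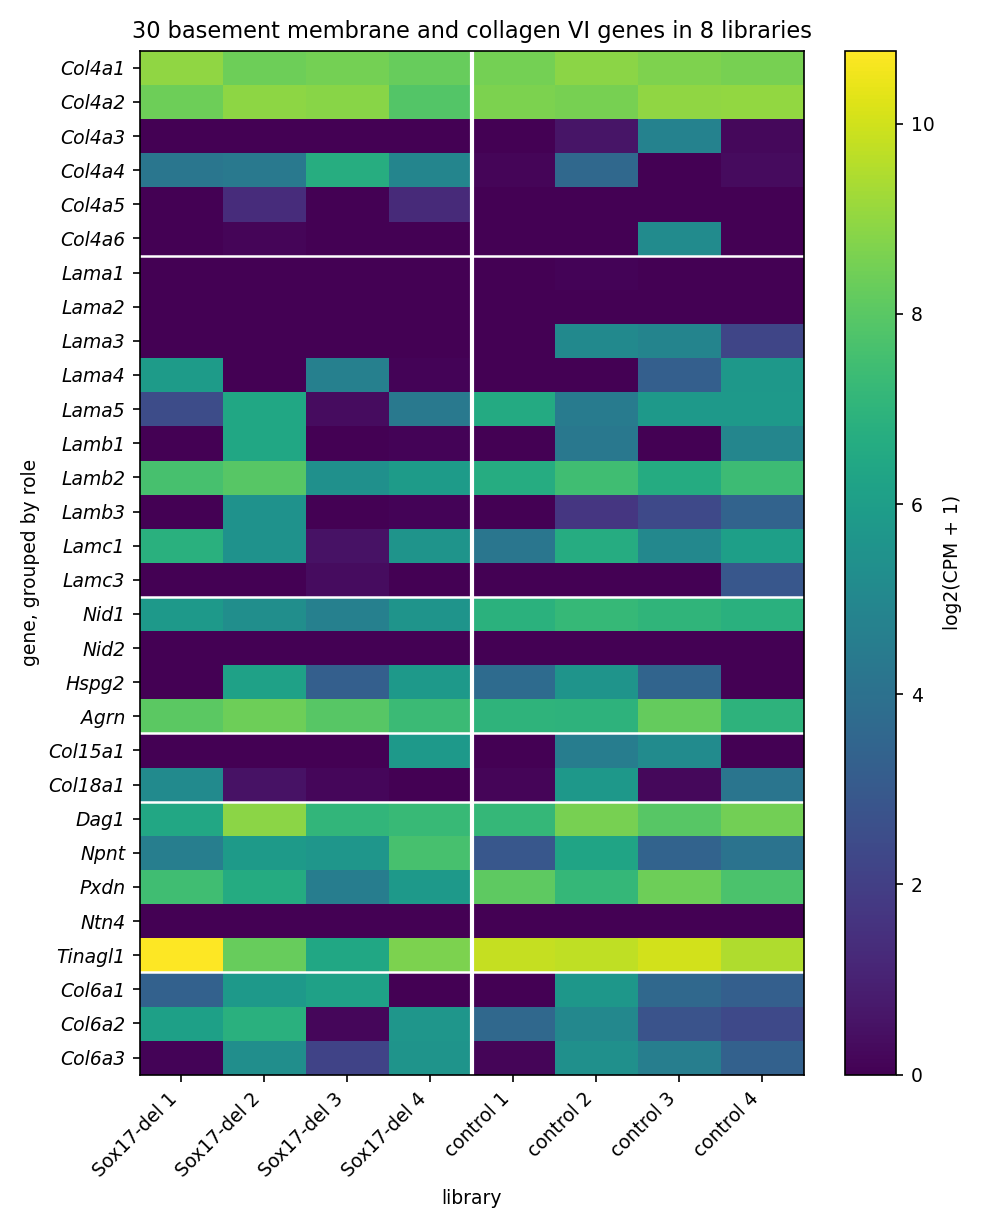
Levels of the 30 members (rows, grouped by role, with white lines between the groups) in the 8 libraries (columns, Sox17-deleted hypoxic libraries left of the white line and control libraries right of it), on the scale log2(CPM + 1). Col4a1 and Col4a2 were bright in every library. Tinagl1 was bright in the controls and ranged from 85.3 to 1741 CPM in the Sox17-deleted hypoxic libraries. Lama2, Nid2 and Ntn4 were at 0 in all 8, and many laminin and collagen VI chains were read in some libraries of a group and not in others.

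Col4a1 and Col4a2, which encode the alpha 1 and alpha 2 chains of the common collagen IV network, were read at 238 CPM or more in all 8 libraries, and neither differed between the groups beyond the spread of the libraries. Col4a1 had 509, 336, 364 and 303 CPM in the Sox17-deleted hypoxic libraries, against 367, 469, 406 and 376 CPM in the control libraries. Col4a2 had 336, 489, 455 and 238 CPM in the Sox17-deleted hypoxic libraries, against 404, 372, 504 and 516 CPM in the controls. For both genes the groups overlapped, and the lowest value was that of Sox17-deleted hypoxic library 4. Col4a1 averaged 378 ± 91.0 CPM in Sox17-deleted hypoxic libraries and 405 ± 45.9 CPM in controls (SD, n = 4 each), with a log2 fold change of −0.07 and a 95% interval from −0.78 to 0.63 in the edgeR fit (adjusted p = 1.00). Col4a2 averaged 379 ± 115 CPM and 449 ± 71.9 CPM, with a log2 fold change of −0.21 and an interval from −0.95 to 0.52 (edgeR adjusted p = 1.00). The sign of the Col4a1 difference turned with the setting, with log2 fold changes from −0.22 to 0.04 over 16 alternatives.

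The ratio of Col4a1 to Col4a2 counts was 1.52, 0.688, 0.800 and 1.27 in the Sox17-deleted hypoxic libraries and 0.909, 1.26, 0.805 and 0.730 in the controls. Either gene was thus the higher of the pair in some libraries of each group. Their sum was 845, 825, 819 and 541 CPM in the Sox17-deleted hypoxic libraries and 771, 841, 910 and 892 CPM in the controls, with means of 757 ± 145 CPM and 854 ± 62.2 CPM. Relative to its mean, the sum spread less than either gene in both groups. Set against the pan-endothelial markers of the same library, the summed collagen IV chains were 6.30%, 6.43%, 6.64% and 6.67% of the marker sum in the Sox17-deleted hypoxic libraries and 5.65%, 6.75%, 6.89% and 6.53% in the controls. Library 4, the lowest in collagen IV by CPM, was the highest of its group on that scale, which was chosen after the values were seen. The markers in that sum differed in direction between the groups, as given above.

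The other collagen IV chains were low. Col4a4, whose product joins the alpha 3 and alpha 5 chains in the collagen IV of the glomerulus and of alveolar basement membrane, had 17.7, 19.2, 104 and 29.0 CPM in the Sox17-deleted hypoxic libraries, against 0.0946, 11.6, 0 and 0.252 CPM in the controls. Every Sox17-deleted hypoxic library lay above every control, the nearest pair being 17.7 and 11.6 CPM. The edgeR log2 fold change of 3.89 (SE 2.26) had an adjusted p of 1.00 and an interval from −0.96 to 8.74; it was 8.48 without control library 2, which held nearly all control counts, and 2.81 without Sox17-deleted hypoxic library 3, with adjusted p values from 0.168 to 1.00 among 15 alternatives. Its head-to-head neighbour Col4a3 was not read above 0 in any Sox17-deleted hypoxic library and had 0, 6, 307 and 2 counts in the controls. The alveolar type 2 sums did not overlap between the groups in the same direction as Col4a4, and their part in it was not tested. Col4a5 had 15 and 16 counts in libraries 2 and 4 of the Sox17-deleted hypoxic group and 0 elsewhere, and Col4a6 had 418 counts in control library 3 and at most 1 elsewhere. Col4a1 and Col4a2 made up 88.7% to 97.9% of all collagen IV counts in the Sox17-deleted hypoxic libraries and 93.6% to 100% in the controls.

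Laminin chains were less abundant than collagen IV, and less even between libraries. Their sum was 372, 508, 67.6 and 125 CPM in the Sox17-deleted hypoxic libraries and 211, 350, 227 and 391 CPM in the controls. The ratio of the collagen IV sum to the laminin sum was 2.32, 1.66, 13.7 and 4.56 in the Sox17-deleted hypoxic libraries and 3.66, 2.44, 4.28 and 2.28 in the controls. Sox17-deleted hypoxic library 3, the library with the fewest total counts, was the one at 13.7. The SD of the laminin sum was 207 CPM in Sox17-deleted hypoxic libraries and 89.2 CPM in controls, around means of 268 CPM and 295 CPM, and the log2 ratio of the means, −0.14, was −0.65 when library 2 of the Sox17-deleted hypoxic group was left out and 0.19 when library 3 was.

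**Figure D2:**
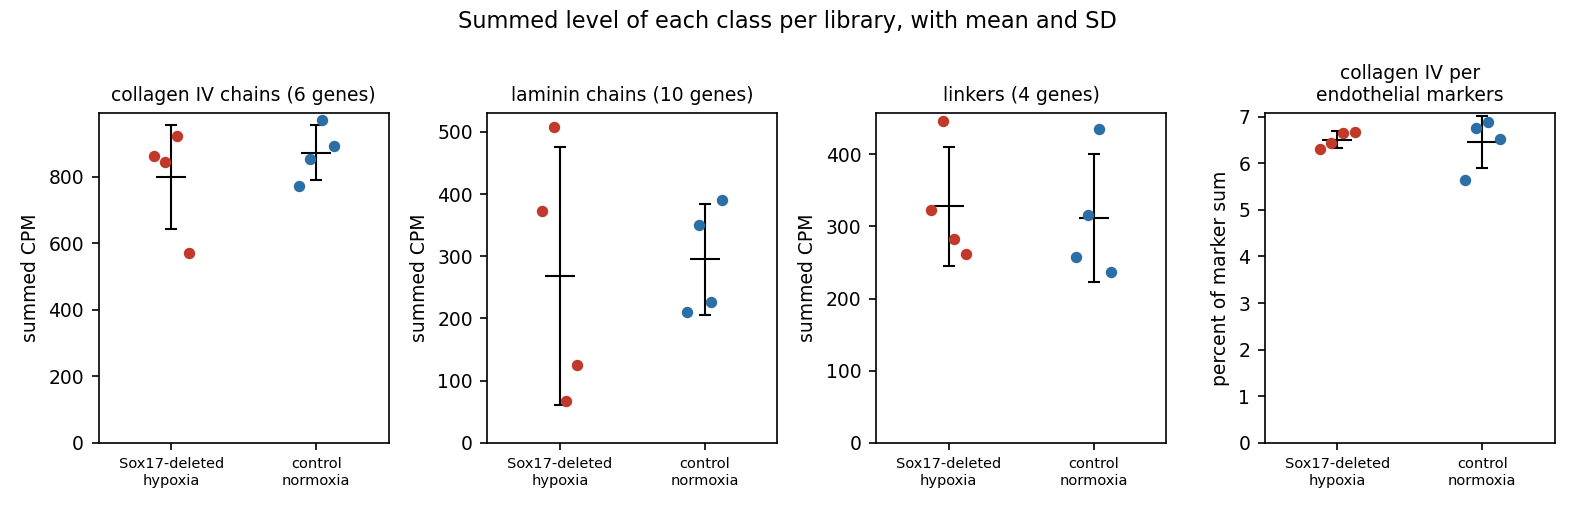
Summed CPM of the collagen IV chains, laminin chains and linkers, and the collagen IV sum as a percentage of the pan-endothelial marker sum, for each library (points), with the mean and SD of each group (black). The groups overlap in all 4 panels; the collagen IV sums lie between 571 and 972 CPM, the laminin sums between 67.6 and 508 CPM and the linker sums between 237 and 446 CPM.

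Lamb2, the beta 2 chain of laminins in vascular and synaptic basement membrane, was the most abundant laminin gene. It had 195, 251, 41.4 and 58.7 CPM in the Sox17-deleted hypoxic libraries, against 99.9, 174, 98.6 and 165 CPM in the controls. The control values lay between the higher and the lower pair of the Sox17-deleted hypoxic values, with a log2 fold change of 0.01 and an interval from −1.32 to 1.33 (edgeR adjusted p = 1.00). Lamb2 supplied 46.9% to 61.3% of the laminin sum in the Sox17-deleted hypoxic libraries and 42.1% to 49.6% in the controls. Lamc1, which encodes the gamma 1 chain of most laminins, had 114, 44.5, 0.429 and 47.1 CPM in the Sox17-deleted hypoxic libraries, against 17.5, 101, 32.0 and 67.3 CPM in the controls (log2 fold change −0.09, SE 1.26, edgeR adjusted p = 1.00). Sox17-deleted hypoxic library 3 had 3 Lamc1 counts, and the groups overlapped.

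The alpha chains give endothelial laminins their identity: Lama4 and Lama5 encode those of the vessel wall, Lama3 that of epithelial laminin, and Lama1 and Lama2 those of embryonic and muscle basement membrane. Lama5 had 4.65, 85.2, 0.286 and 19.2 CPM in the Sox17-deleted hypoxic libraries, against 93.5, 21.3, 55.7 and 56.5 CPM in the controls (log2 fold change −1.12, SE 1.46, edgeR adjusted p = 1.00). The groups overlapped through Sox17-deleted hypoxic library 2. Without it they did not, beside 11.5% of all genes tested, and the log2 fold change was −2.84 (edgeR adjusted p = 0.749). Lama4 was read in some libraries and not in others of both groups, with 753, 0, 176 and 1 counts in the Sox17-deleted hypoxic libraries and 0, 0, 100 and 621 counts in the controls. The beta 1 chain gene Lamb1, a partner of Lama4 and Lama5 in endothelial laminins, behaved likewise, with 0, 793, 0 and 1 counts and 0, 208, 0 and 358 counts.

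Lama3 and Lamb3 encode chains of the laminin that anchors epithelium. Lama3 had 0 counts in all 4 Sox17-deleted hypoxic libraries, and 0, 367, 324 and 45 counts in the controls. With each Sox17-deleted hypoxic library set to a floor of 3 counts, its mean was 51.9-fold lower there, and 33.8-fold lower without control library 2. This floor covers counting error only, so these folds are no bounds. Control library 1 was at 0 as well. Over all tested genes averaging 10 to 200 CPM, 21.2% of values in the Sox17-deleted hypoxic libraries and 6.34% in the controls were at 0 or 1 count. It did not pass the expression filter; edgeR without a filter gave an adjusted p of 0.360 and DESeq2 one of 0.0246, with a range from 0.0246 to 0.607 among the alternatives that tested it. Lamb3 had 0, 414, 0 and 1 counts in the Sox17-deleted hypoxic libraries and 0, 25, 49 and 115 counts in the controls. Lama1 had 1 count in all, Lama2 had none, and Lamc3 had 78 counts in control library 4 and at most 2 elsewhere. Exons of Gm48084, on the opposite strand, lie within the last 500 bases of Lama2, and the part of read assignment in the absence of Lama2 was not tested.

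Nid1 (ENSMUSG00000005397.8, chromosome 13, 13437551 to 13512269, plus strand, GRCm38) encodes nidogen 1, which binds the laminin gamma 1 chain and collagen IV and so ties the networks together. It had 54.6, 38.8, 24.6 and 46.6 CPM in the Sox17-deleted hypoxic libraries, against 118, 147, 131 and 113 CPM in the control libraries. All 4 Sox17-deleted hypoxic libraries lay below all 4 controls, the nearest pair being 54.6 and 113 CPM. The means were 41.2 ± 12.8 CPM and 127 ± 15.2 CPM (SD, n = 4 each), and the edgeR log2 fold change was −1.62 (SE 0.66, unadjusted p = 0.0282, adjusted p = 0.800, 95% interval −3.05 to −0.20). DESeq2 gave −1.54 (adjusted p = 0.00657). The 15 alternatives put the log2 fold change between −1.78 and −1.47, with adjusted p values from 0.00657 to 1.00.

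As a percentage of the summed Col4a1 and Col4a2 level, Nid1 stood at 6.46%, 4.71%, 3.00% and 8.62% in the Sox17-deleted hypoxic libraries and at 15.3%, 17.5%, 14.3% and 12.7% in the controls. On this scale the groups did not overlap either. The Nid1 CPM values were already without overlap and the Col4a1 plus Col4a2 sums overlapped, so this ratio is not a separate result. Nid2, which encodes the other nidogen, had 0 counts in all 8 libraries. Exons of Rtraf, on the opposite strand, lie within its last 500 bases, and the part of read assignment in these 0 counts was not tested. The part of the smaller number of genes with counts in the Sox17-deleted hypoxic libraries in the lower Nid1 level was not tested.

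Agrn, which encodes the proteoglycan agrin, was the most abundant linker. It had 267, 337, 249 and 162 CPM in the Sox17-deleted hypoxic libraries, against 127, 122, 294 and 124 CPM in the controls. A single control, library 3 at 294 CPM, reached into the range of the Sox17-deleted hypoxic libraries. Without that control the groups did not overlap, beside 8.37% of all genes tested. The means were 254 ± 72.1 CPM and 167 ± 84.8 CPM, with a log2 fold change of 0.64 and an interval from −0.30 to 1.58 (edgeR adjusted p = 1.00). Hspg2, which encodes perlecan, the large heparan sulphate proteoglycan of vessel walls, had 0, 70.3, 8.57 and 53.9 CPM in the Sox17-deleted hypoxic libraries and 12.5, 46.5, 10.1 and 0 CPM in the controls. The linker sum was 322, 446, 282 and 262 CPM in the Sox17-deleted hypoxic libraries and 258, 316, 435 and 237 CPM in the controls, and agrin made up 61.6% to 88.3% of it and 38.6% to 67.7%.

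**Figure D3:**
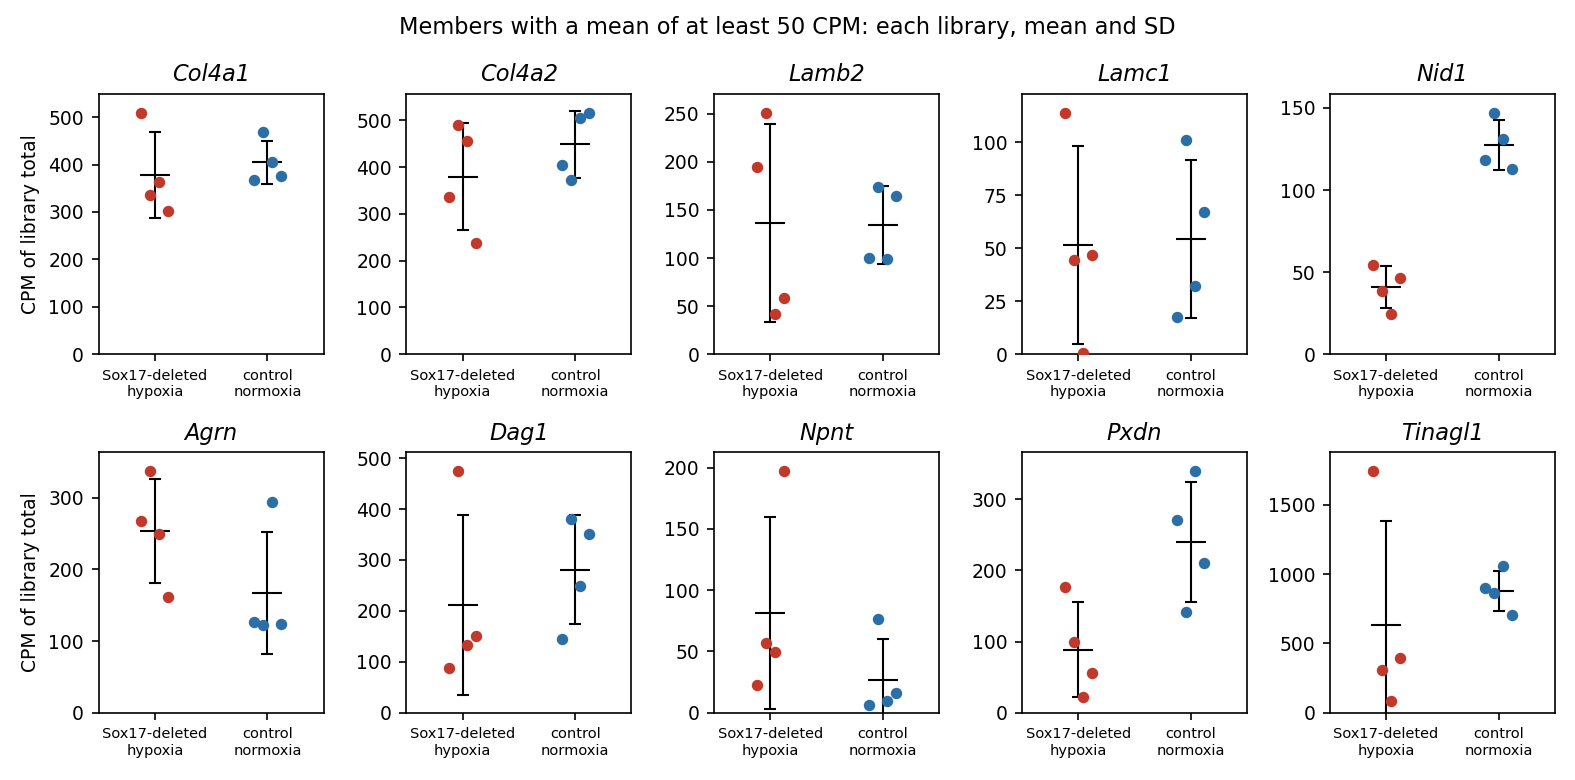
CPM of the library total in each library (points) for the 10 members averaging 50 CPM or more, with the mean and SD of each group (black; bars that would pass below 0 are cut there). Nid1 is the panel in which the groups do not overlap, with 24.6 to 54.6 CPM in the Sox17-deleted hypoxic libraries and 113 to 147 CPM in the controls.

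Tinagl1, which encodes a secreted matrix protein related to tubulointerstitial nephritis antigen, had the highest mean of the 30 members, and its spread between Sox17-deleted hypoxic libraries was wide. It had 1741, 307, 85.3 and 393 CPM in the Sox17-deleted hypoxic libraries, against 898, 860, 1058 and 707 CPM in the controls. Library 1 was above every control and the other 3 below every control, so that the log2 fold change of −0.47 (interval −1.84 to 0.90, edgeR adjusted p = 1.00) averages values on both sides. Without library 1 it was −1.77 (edgeR adjusted p = 0.230), and over 16 alternatives it ran from −1.77 to −0.11, with adjusted p values from 0.230 to 1.00. Tinagl1 made up 47.1%, 10.4%, 5.21% and 20.6% of the summed level of the 30 members in the Sox17-deleted hypoxic libraries and 24.9% to 34.9% in the controls.

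Pxdn encodes peroxidasin, the enzyme that cross-links collagen IV trimers through sulfilimine bonds. It had 177, 99.0, 22.4 and 56.3 CPM in the Sox17-deleted hypoxic libraries, against 270, 141, 339 and 210 CPM in the controls. The groups overlapped only in that Sox17-deleted hypoxic library 1 exceeded control library 2, and they did not overlap with either of these left out. The edgeR log2 fold change was −1.43 (SE 0.59, unadjusted p = 0.0303, adjusted p = 0.825); over 16 alternatives it ran from −2.05 to −1.13, with adjusted p values from 0.229 to 1.00. The value of −2.05 was that without Sox17-deleted hypoxic library 1.

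Dag1, the gene of dystroglycan, a cell surface receptor for laminin, perlecan and agrin, had 88.0, 474, 133 and 151 CPM in the Sox17-deleted hypoxic libraries, against 144, 380, 248 and 350 CPM in the controls. Library 2 held the highest value of all 8, and of the other Sox17-deleted hypoxic libraries 2 lay below the lowest control and 1 just above it (log2 fold change −0.42, SE 0.52, edgeR adjusted p = 1.00). Without library 2 the Dag1 log2 fold change was −1.09 (edgeR adjusted p = 0.474), and over 16 alternatives it ran from −1.09 to −0.17. Npnt encodes nephronectin, a ligand of integrin alpha 8 beta 1 that alveolar type 1 cells make in the lung. It had 23.0, 56.6, 49.7 and 197 CPM in the Sox17-deleted hypoxic libraries, against 6.53, 76.1, 9.79 and 16.1 CPM in the controls (log2 fold change 1.56, SE 1.16, edgeR adjusted p = 1.00). Its highest value was in library 4, and the groups overlapped through control library 2. The Npnt log2 fold change was 2.92 without control library 2 and 0.70 without Sox17-deleted hypoxic library 4 (edgeR adjusted p = 1.00 for both). The part of alveolar type 1 cells in it was not tested. Their markers did not go 1 way: of the 9 tested, 6 had a log2 fold change above 0, Ager among them, and 3 below. Their sum averaged 3000 CPM in the Sox17-deleted hypoxic libraries and 3595 CPM in the controls, with overlap. Ntn4, the gene of the laminin-binding netrin 4, had 0 counts in all 8 libraries.

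**Figure D4:**
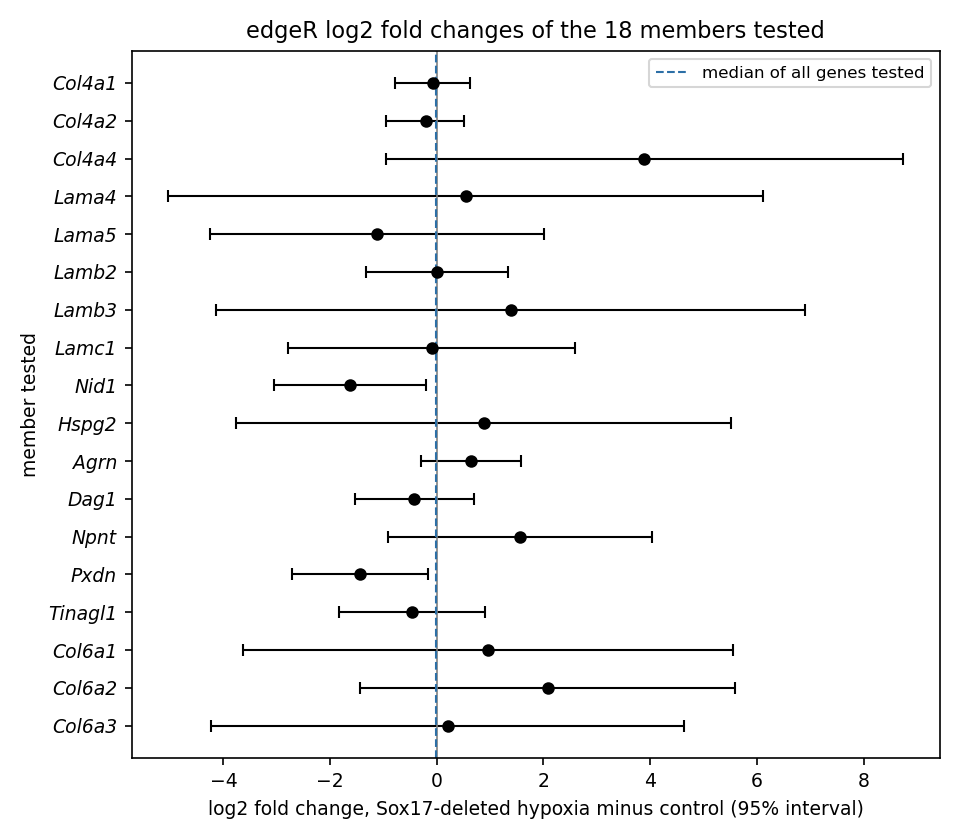
EdgeR log2 fold changes (horizontal axis, Sox17-deleted hypoxia minus control) of the 18 members tested (points) with 95% intervals (bars); the grey line marks 0 and the dashed line the median of all genes tested. The intervals of Nid1 and Pxdn lie below 0 before adjustment over all genes, and those of Col4a1 and Col4a2 are the narrowest about 0.

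Collagens XV and XVIII, whose C-terminal fragments include the angiogenesis inhibitors restin and endostatin, were read in few libraries. Col15a1 had 0, 0, 0 and 626 counts in the Sox17-deleted hypoxic libraries and 0, 253, 413 and 0 counts in the controls. Col18a1 had 451, 4, 1 and 0 counts and 1, 585, 2 and 203 counts. Neither passed the expression filter. At least 3 Col15a1 counts were found in 1 Sox17-deleted hypoxic library and 2 controls, and at least 3 Col18a1 counts in 2 libraries of each group.

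The collagen VI chains form beaded microfibrils outside the basement membrane and are chiefly products of fibroblasts and mural cells. Their sum was 77.4, 205, 73.7 and 96.3 CPM in the Sox17-deleted hypoxic libraries, against 11.7, 124, 40.3 and 21.9 CPM in the controls. The groups overlapped through control library 2. Col6a2 had 880, 1073, 1 and 558 counts in the Sox17-deleted hypoxic libraries, against 123, 345, 68 and 49 counts in the controls (log2 fold change 2.08, SE 1.64, edgeR adjusted p = 1.00). All but library 3, with its 1 count, were above every control. Without library 3 the groups did not overlap, beside 11.3% of all genes tested. Col6a1 ranged from 0 to 70.1 CPM and from 0 to 50.7 CPM, and Col6a3 from 0.0774 to 46.3 CPM and from 0.0946 to 41.7 CPM, and all 3 log2 fold changes were above 0 with intervals that include 0. For Col6a3 (0.21) the sign turned under 6 of 15 alternatives, which ran from −0.45 to 1.03. The fibroblast markers other than Gsn summed to 587 to 1392 CPM in the Sox17-deleted hypoxic libraries and 479 to 695 CPM in the controls, and the part of fibroblasts in these levels was not tested.

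Members with moderate levels were often absent from single libraries. Of the 120 values of the 30 members in each group, 50 were at 0 or 1 count in the Sox17-deleted hypoxic libraries (41.7%) and 41 in the controls (34.2%). Among the 18 tested members the shares were 12.5% and 11.1%, and among the 12 of them with a mean of 10 to 200 CPM, 12.5% (6 of 48 values) and 14.6% (7 of 48). Over all 6651 tested genes in that range the shares were 21.2% and 6.34%. The difference between the members and all genes in these shares was not tested.

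Genes outside the 30 that make, anchor or remodel basement membrane were looked at as lists. None of their tested genes passed an edgeR adjusted p of 0.05. Of the collagen synthesis and crosslinking list, 15 of 22 genes were tested, 8 with a log2 fold change above 0 and 7 below (median 0.21). Its most abundant genes were Tgm2, which encodes transglutaminase 2 (1502, 558, 924 and 689 CPM in Sox17-deleted hypoxic libraries, against 634, 715, 715 and 801 CPM in controls), P4hb, a subunit of prolyl 4-hydroxylase (212 ± 106 and 242 ± 135 CPM), and Mia3, the collagen export factor TANGO1 (211 ± 150 and 160 ± 63.7 CPM). Sec31a, a component of the vesicle coat that carries procollagen from the endoplasmic reticulum, had 80.5, 66.2, 28.0 and 109 CPM in the Sox17-deleted hypoxic libraries, against 157, 142, 137 and 180 CPM in the controls, without overlap (log2 fold change −1.13, SE 0.58, edgeR adjusted p = 1.00).

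Other genes of the basement membrane and the adjoining matrix numbered 31, of which 12 were tested, 7 above and 5 below 0 (median 0.38). Sparc, which encodes the collagen-binding glycoprotein osteonectin, had 1450, 1765, 2048 and 1402 CPM in the Sox17-deleted hypoxic libraries, against 554, 1138, 893 and 739 CPM in the controls. Every Sox17-deleted hypoxic library lay above every control, with a log2 fold change of 1.03 (SE 0.32, unadjusted p = 0.00598, edgeR adjusted p = 0.386). The part of other cell types in the Sparc level was not tested. Egfl7, an endothelial matrix gene, stood at 2812 ± 1418 and 1883 ± 226 CPM, and Mmrn2, the endothelial multimerin, at 263 ± 170 and 310 ± 71.2 CPM.

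Of the 27 basement membrane receptor genes, 18 were tested, 9 above and 9 below 0 (median −0.03). Itgb1, the integrin beta 1 chain of most laminin and collagen receptors, had 785, 746, 612 and 479 CPM in the Sox17-deleted hypoxic libraries and 613, 489, 715 and 629 CPM in the controls. Bcam, a receptor for the laminin alpha 5 chain, averaged 475 ± 313 and 368 ± 26.4 CPM, and Cd151, a tetraspanin partner of laminin-binding integrins, 233 ± 126 and 323 ± 48.2 CPM. Sdc3, the gene of syndecan 3, did not overlap, at 91.2, 3.07, 15.6 and 57.9 CPM in the Sox17-deleted hypoxic libraries and 139, 98.4, 121 and 224 CPM in the controls (log2 fold change −1.78, SE 0.89, edgeR adjusted p = 1.00).

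In the proteolysis list 12 of 20 genes were tested, 2 above and 10 below 0 (median −0.34). The most abundant were the inhibitors Timp3 (2976 ± 1945 and 2434 ± 518 CPM), which binds to matrix, and Timp2 (1709 ± 549 and 1965 ± 320 CPM). Of the lysosomal proteases, Ctsl averaged 115 ± 44.5 CPM in the Sox17-deleted hypoxic libraries and 295 ± 99.7 CPM in the controls, with overlap (log2 fold change −1.34, SE 0.45, edgeR adjusted p = 0.470), and Ctsb had 76.9, 101, 43.3 and 0.179 CPM in the Sox17-deleted hypoxic libraries and 190, 287, 111 and 233 CPM in the controls (log2 fold change −1.89, SE 1.02, edgeR adjusted p = 1.00). Another lysosomal protease of the list, Ctss, stood the other way, at 79.0 CPM in the Sox17-deleted hypoxic libraries and 15.9 CPM in the controls on average, with overlap (log2 fold change 2.32, SE 1.56, edgeR adjusted p = 1.00); it is also a macrophage marker and was named after its values were seen. Ctsb did not overlap between the groups, and neither did Adamts1, a protease of proteoglycans, at 4.29 to 45.9 CPM in the Sox17-deleted hypoxic libraries and 62.6 to 73.4 CPM in the controls. Of all genes tested, 49.6% were above 0.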

How the data were processed

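Ribosome-bound RNA was sequenced in 8 libraries made with a QuantSeq 3′ kit, per the labels' protocols. The authors deposited raw counts by gene symbol, with no normalization, as separate tables. Bowtie2, bedtools and mm10 are named in the submitters' processing notes without versions; their settings, the treatment of strand, of duplicates and of reads with several matches are not given in the sources used here. Exons of another gene lie within the last 500 bases of 3 members (Col4a3, Lama2 and Nid2) in GENCODE M21, each on the opposite strand. Since the treatment of strand is not given, reads there cannot be assigned with certainty. After 44 duplicate rows were summed, 23238 symbols remained; all pairs of libraries differed by more than sampling noise (smallest chi-square per degree of freedom 197). Samples were grouped by title. EdgeR 4.0.16 in R 4.3.3 (TMM factors, filterByExpr, group alone, quasi-likelihood F test, Benjamini-Hochberg over all genes) gave the log2 fold changes; SE is the fold change divided by the square root of F. Sums over lists were not tested, and Lepre1 and Hmcn2 of the lists matched no symbol. Alternatives were RLE or no factors, no filter, a higher minimum mean level, DESeq2 1.42.0, limma-voom (limma 3.58.1), robust estimation, the replicate number as a block, and each library left out. Members averaging 50 CPM or more, and members that did not overlap, are given per library. Of each list of related genes, the 3 most abundant are named, with those of at least 50 CPM that did not overlap; of each marker list, the sum. The members and lists were chosen with earlier results of these data known.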

Additional observations from a re-analysis of the deposited data

Results flagged for a closer look

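In 13 of 59 sets of 4 libraries of a group, the highest library stood far from the other 3. The measure was its gap to the next library divided by the range of the group, set against Dixon's 95% critical value. For normally distributed values, chance alone flags about 1 set in 20. Several of the flagged sets held 1 high library beside libraries with few or no counts, so that rate need not apply to them. The share of flagged sets among all genes was not tested, so the 13 flags are not shown to be an excess. Genes with few counts in every library were not looked at. In the Sox17-deleted hypoxic group the sets were Col4a4 in library 3 (gap 0.870 of the range, 104 CPM), Lamb1 in library 2 (0.999, 83.9 CPM), Lamb3 in library 2 (0.998, 43.8 CPM), Col15a1 in library 4 (1.000, 56.1 CPM), Col18a1 in library 1 (0.988, 34.9 CPM) and Dag1 in library 2 (0.836, 474 CPM). In the control group they were Col4a3 in library 3 (0.979, 26.4 CPM), Col4a4 in library 2 (0.978, 11.6 CPM), Col4a6 in library 3 (1.000, 35.9 CPM), Lama4 in library 4 (0.836, 52.3 CPM), Lamc3 in library 4 (1.000, 6.56 CPM), Agrn in library 3 (0.969, 294 CPM) and Npnt in library 2 (0.863, 76.1 CPM). Most of these genes had a mean under 50 CPM; Dag1, Agrn and Npnt did not.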

How the results depend on the processing

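DESeq2 called 2 members where edgeR called 0; for Nid1 it gave a log2 fold change of −1.54 (adjusted p = 0.00657). With a higher minimum mean level, 2 of the 7 members left for testing had a log2 fold change above 0, beside 872 of all 1641 genes. Without 1 library at a time, the tested members without overlap between groups numbered 2 to 5. There were 5 without Sox17-deleted hypoxic library 1, which added Col4a1, Pxdn and Tinagl1 (all lower). There were 4 without control library 2, which added Npnt (higher) and Pxdn (lower). Of all 8282 genes tested, 693 to 1157 were then without overlap, 1157 and 762 at these settings. Without control library 1, Col4a3 and Lama3 (both lower), which had not passed the filter, did not overlap either. Of the 18 members, 6 turned sign under some alternative. With a library left out, Col4a1 ran from −0.22 to 0.04, Lamb2 from −0.41 to 0.29 and Lamc1 from −0.89 to 0.40. Col4a1 was at 0.02 with RLE factors and with DESeq2. With limma-voom, Lamb2 was at −0.14 and Lamc1 at −0.68. Over all their alternatives Col6a3 ran from −0.45 to 1.03, Lama4 from −0.58 to 2.99 and Lamb3 from −6.54 to 2.30, its lowest value being that without Sox17-deleted hypoxic library 2. The cause of these changes was not tested. The median of all genes moved to −0.71 with limma-voom, −0.57 with the block and −0.10 without a filter. The other 12 kept their direction under every alternative that tested them. The collagen IV, laminin and linker sums had log2 ratios of 0.01, −0.04 and 0.24 when divided by the pan-endothelial sum, a scale chosen after seeing the data.

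Replicate numbers showed no sign of pairing: correlations of same-numbered libraries were 0.00, 0.01, −0.03 and 0.02. Differently numbered libraries gave −0.02 to 0.02. All values were this small, so the check cannot exclude a pairing hidden by the variation between libraries. With the replicate number as a block, edgeR called 0 members and 0 of all 8282 genes tested. Of the members, 7 of 18 were above 0, beside 2836 of the 8282 genes. The Nid1 log2 fold change was then −1.66 (edgeR adjusted p = 0.916). Those of Lamb2, Lamc1, Col6a3 and Lamb3 were −0.29, −1.02, −0.19 and −3.98. Of the libraries, 1 of 4 in each group correlated best with its own number. With 4 libraries a group, intervals of members read in only some libraries span several log2 units, so differences of that size were not detectable.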
